A study of Rattus norvegicus with 14 samples.

Results

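Hippocampal astrocytes treated with allopregnanolone (AM-Allo) were compared with vehicle-treated astrocytes (AM-Veh) across the whole transcriptome. These astrocyte cultures gave 6 of the 14 libraries of the series, 3 AM-Allo and 3 AM-Veh, and the other 8 came from hippocampal neurons. The cells came from the hippocampi of embryonic day 18 fetuses of Sprague Dawley rats. Mixed glia were shaken overnight to detach microglia and oligodendrocytes and the adherent cells were plated again, so that the cultures are enriched for astrocytes rather than pure. The cells of all 6 libraries were held for 24 h in AM, a medium with charcoal-stripped serum. They then had 24 h with either 100 nM Allo or the ethanol vehicle. The sources do not say whether the libraries of a group came from separate cultures or how many fetuses were pooled, and p-values then measure only the spread between these libraries. Of 31791 genes listed, 15380 averaged 10 or more normalized counts and were tested.

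Allopregnanolone is a neurosteroid made from progesterone that prolongs the opening of GABA-A receptors, the chloride channels gated by the transmitter GABA. Astrocytes clear glutamate and potassium, supply neurons with lactate and cholesterol, secrete trophic factors and present immune signals, and their reactive states are read from cytoskeletal, complement and chemokine genes. MHC class I molecules display peptides at the cell surface after the TAP transporter has brought them into the endoplasmic reticulum, and interferons and NF-κB both raise the genes of this pathway.

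The normalized counts of each library summed to between 23783755 and 24006620. Steps of the low values put the depth at about 28500000 reads on genes in AM-Allo 3 and 22200000 to 24100000 in the others. This estimate is roughest for AM-Allo 3 and AM-Allo 2, where 72.84% and 74.5% of low values lay near whole reads, against 84.93% to 94.92%. Astrocyte transcripts were present in every library. Gfap, the astrocyte intermediate filament, was listed at 139943, 131338 and 136519.8 in AM-Veh 1 to 3 and 132453, 134864 and 132868 in AM-Allo 1 to 3. The astrocyte water channel Aqp4 was listed at 33882, 31922 and 31909 in AM-Veh 1 to 3 and 31206, 29243 and 33499 in AM-Allo 1 to 3. Markers of other cells were also present. The summed level of 22 microglia and macrophage markers was 4297 to 5806 in AM-Veh and 4636 to 4895 in AM-Allo, and none of the 22 was at 0. The 17 ependymal and cilia markers summed to 11628 to 12846 in AM-Veh and 10166 to 11842 in AM-Allo. The 17 mesenchymal and fibroblast markers summed to 263510 to 297312 in AM-Veh and 268137 to 291578 in AM-Allo. In these bulk cultures fewer cells of a type cannot be told apart from less RNA per cell. AM-Allo 3 stood apart on the first principal component, which held 29.9% of the variance, with a loading of 0.851 against -0.356 to 0.105 for the other 5 libraries. Whether its greater depth lay behind this was not tested. AM-Allo 2 stood apart on the second, which held 21.1%, with 0.814 against -0.479 to 0.095.

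A single gene passed adjustment over all tested genes in limma (0.0065% of genes tested). Gatd1, named for its glutamine amidotransferase-like domain, was listed at 4.28, 5.45 and 3.998 in AM-Veh 1 to 3 and 44.2, 77.0 and 71.0 in AM-Allo 1 to 3. The groups did not overlap, and the mean was 14-fold higher in AM-Allo, 64.1 ± 17.4 against 4.58 ± 0.77 (SD, n = 3 in each group). Its log2 difference was 3.52 ± 0.32 (SE), with an adjusted p = 0.000971. Neither of its nearest tested neighbours in the RefSeq order was called. Taldo1 differed by 0.02 (adjusted p = 0.966) and Slc25a22 by -0.004 (adjusted p = 0.998) on the log2 scale. In neurons Gatd1 averaged 13.7 in AM-Veh and 9.71 in AM-Allo (log2 difference -0.25). The adjusted p stayed under 0.05 with each library left out in turn, at most 0.0336 without AM-Allo 2, and was 0.134 without the trend of variance.

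For the remaining genes, higher and lower refer here to an unadjusted p under 0.05 in limma. By this rule 572 genes were higher (3.72% of genes tested) and 506 were lower in AM-Allo (3.29%), so that 7.01% of genes were called in either direction. Under upper-quartile scaling 427 were higher and 668 lower. The median absolute log2 difference of the called genes was 0.22, and 57 of them reached 1 or more. Both groups were separate, with no overlap between the 3 AM-Allo and the 3 AM-Veh values, for 422 of the higher and 395 of the lower genes. Over all tested genes 6.42% were higher and 6.07% lower without overlap. Leaving out each library in turn kept 294 of these genes at an unadjusted p under 0.05 in all 6 fits, 171 of them higher. An exact permutation test of 3 against 3 libraries cannot give a p below 0.1, so that no single gene could pass 0.05 in that test.

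**Figure D1:**
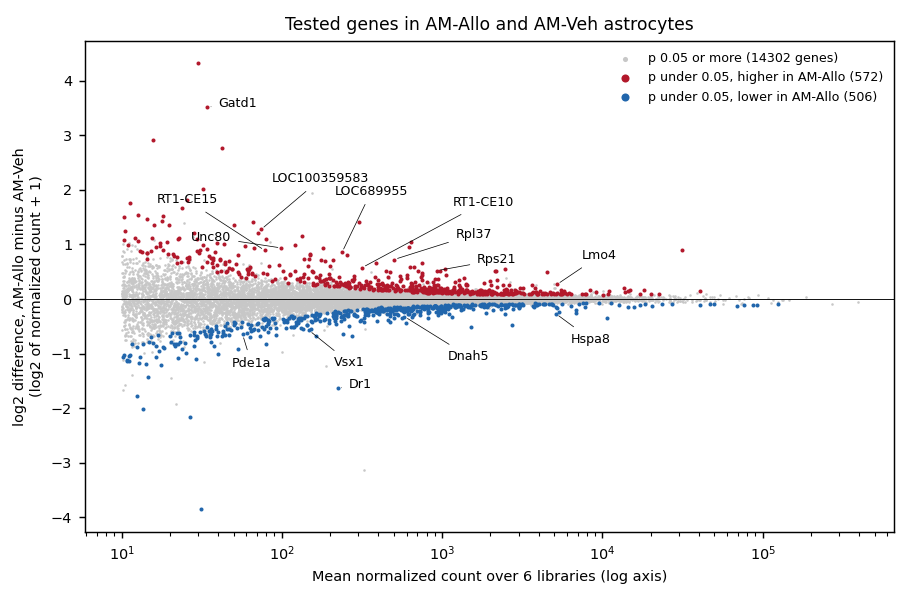
Log2 difference between AM-Allo and AM-Veh (vertical axis) against the mean normalized count over the 6 libraries (horizontal log axis) for 15380 genes, one point per gene, with 572 higher and 506 lower genes in color at an unadjusted p under 0.05. Gatd1 lies at 3.52 and Dr1 at -1.64, whereas most abundant genes lie close to 0.

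Among genes with a mean of at least 50 and groups that did not overlap, the largest differences included ion channel, MHC and uncharacterized genes. Unc80, a subunit of the sodium leak channel complex that sets resting excitability, was listed at 59.8, 90.2 and 55.6 in AM-Veh 1 to 3 and 112, 159 and 119 in AM-Allo 1 to 3. The lowest AM-Allo value exceeded the highest AM-Veh value, and the log2 difference was 0.94 ± 0.20 (adjusted p = 0.269). Its neighbours in the RefSeq order had negative log2 differences, -0.13 for Map2 (adjusted p = 0.684, call lost without AM-Allo 2, AM-Veh 1 or AM-Veh 3, at -0.07 to -0.13) and -0.06 for Rpe (adjusted p = 0.887). The locus-named genes LOC100359583 and LOC689955 rose by 1.27 and 0.86 on the log2 scale, and RT1-CE15, an MHC class I gene, by 0.89. Of the 12 largest rises 7 were listed by Ensembl ID alone and 1, Mt-ENSRNOG00000032882, by an ID with the mitochondrial prefix Mt.

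Among the largest falls, Dr1, a repressor that binds the TATA-binding protein, was listed at 456.3, 349 and 192 in AM-Veh 1 to 3 and 159.9, 44.9 and 138 in AM-Allo 1 to 3. The groups did not overlap, but the values varied widely within each, and the log2 difference of -1.64 ± 0.39 (adjusted p = 0.302) was not called in a robust fit. Pigg, the gene next to Dr1 in the RefSeq order and an enzyme of GPI anchor synthesis, differed in the opposite direction, by 0.51 (adjusted p = 0.473). Whether reads were shared between these neighbours was not tested.

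Pde1a, a calcium- and calmodulin-dependent phosphodiesterase, was listed at 63.6, 70.5 and 74.6 in AM-Veh 1 to 3 and 40.0, 49.96 and 42.5 in AM-Allo 1 to 3. The 3 AM-Allo values were all below the AM-Veh values, with a log2 difference of -0.65 ± 0.19 (adjusted p = 0.476). Smoc1, a secreted matrix protein that modulates BMP signals, fell from 99.0 ± 11.7 to 64.5 ± 6.34 normalized counts (SD, log2 difference -0.61, adjusted p = 0.448). The homeobox factor Vsx1 was listed at 183, 171 and 175 in AM-Veh 1 to 3 and 141, 105 and 111 in AM-Allo 1 to 3 and differed by -0.57 (adjusted p = 0.294). Hilpda, a lipid droplet protein known for its induction by hypoxia, differed by -0.55 (adjusted p = 0.513), and RGD1561327 by -0.57 (adjusted p = 0.519). The TGF-beta family ligand Gdf1 differed by -0.57 (adjusted p = 0.54, call lost without AM-Veh 3, at -0.44). Cx3cr1, the fractalkine receptor of microglia, differed by -0.58 (adjusted p = 0.552, call lost without AM-Allo 1 or AM-Veh 2, at -0.43 to -0.49). The other 4 of the 12 largest falls were listed by ID alone.

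After Gatd1, 6 genes shared the same adjusted p, of which 4 have a symbol. Lmo4, a LIM-only cofactor of transcription, was listed at 4761, 4632 and 4785 in AM-Veh 1 to 3 and 5349, 5714 and 6019.7 in AM-Allo 1 to 3. The 3 AM-Allo libraries were all higher, with a log2 difference of 0.27 ± 0.043 and an adjusted p = 0.0961 in limma. Hspa8, the constitutive heat shock cognate chaperone, was listed at 5654, 5579.7 and 5563 in AM-Veh 1 to 3 and 4995, 4444 and 4528 in AM-Allo 1 to 3. It was lower in all 3 AM-Allo libraries, by 0.27 on the log2 scale (difference -0.27 ± 0.043), also with a limma adjusted p = 0.0961. The ribosomal protein gene Rps21 was 769, 726 and 794 in AM-Veh 1 to 3 and 995, 1296 and 1017 in AM-Allo 1 to 3 (log2 difference 0.52), and RGD1560324 differed by 0.43. Each of these 4 genes kept a p under 0.05 in every alternative tried.

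Calls among genes of antigen presentation were all in 1 direction. Of 30 MHC genes, 10 were higher in AM-Allo (33.3%, against 3.72% of all genes) and 0 were lower at an unadjusted p under 0.05 in limma. None passed adjustment over all genes, and the median log2 difference over the 30 was 0.06, against 0.0014 over all genes. Of the 10 higher genes, 9 were class I genes of the RT1 complex and the other was Nlrc5, the transactivator of class I genes. Class II genes were not among them. Cd74, the class II invariant chain, differed by -0.07 (adjusted p = 0.968), and B2m, the light chain of class I, by 0.03 at a mean of 23242.

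RT1-CE10 was listed at 251, 271 and 239 in AM-Veh 1 to 3 and 314, 406 and 422 in AM-Allo 1 to 3. All 3 AM-Allo libraries were above the AM-Veh libraries, AM-Allo 1 the least, and the log2 difference was 0.58 ± 0.11 (adjusted p = 0.22). RT1-CE12 was listed at 394, 395 and 374 in AM-Veh 1 to 3 and 467, 509 and 693 in AM-Allo 1 to 3 and differed by 0.50 (adjusted p = 0.294). RT1-T24-4 showed the tightest groups, at 115, 115 and 115 in AM-Veh 1 to 3 and 167, 162 and 150.0 in AM-Allo 1 to 3 (log2 difference 0.47, adjusted p = 0.379). RT1-CE7 and RT1-A2 also separated the groups, with log2 differences of 0.27 and 0.39. In RT1-A1 and RT1-CE4 AM-Allo 1 lay inside the AM-Veh range, as shown for RT1-CE4 by 652, 616 and 576 in AM-Veh 1 to 3 and 625, 938 and 1072 in AM-Allo 1 to 3.

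The class I genes are near-identical copies between which the counting can split reads, so that single copies are uncertain. The summed counts of the 9 RT1-A and RT1-CE genes, a value added after seeing the data, were 3994, 3948 and 3791 in AM-Veh 1 to 3 and 4356, 5242 and 6353 in AM-Allo 1 to 3. The groups did not overlap, and the sum was 5317 ± 1001 in AM-Allo against 3911 ± 106 in AM-Veh (SD), a log2 difference of 0.43. The exact permutation test gave p = 0.1, the smallest that 3 against 3 libraries allow. Nlrc5 was listed at 124, 143 and 112 in AM-Veh 1 to 3 and 172, 136 and 189 in AM-Allo 1 to 3 (adjusted p = 0.654, call lost without AM-Allo 1, AM-Allo 3, AM-Veh 1 or AM-Veh 3, at 0.28 to 0.38). The other 9 of the 10 calls held with each library left out in turn, but RT1-A1 and RT1-CE4 were not called in a robust fit. With no trend of variance the count of higher MHC genes was 7, and RT1-A1, RT1-CE4 and RT1-CE5 were not called. Among the microglia and macrophage markers 0 of 22 were higher and 1, Cx3cr1, was lower at an unadjusted p under 0.05, with a median of -0.03 that was 0.11 without AM-Veh 2. Their sum in the AM-Allo libraries lay inside the AM-Veh range, and their part in the class I values was not tested.

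Of 40 interferon response genes, 11 were higher and 0 lower (27.5%), and 31 of the 40 log2 differences were above 0, with a median of 0.12. Oas1a, an antiviral enzyme that activates RNase L, was listed at 9.05, 17.9 and 6.68 in AM-Veh 1 to 3 and 33.7, 32.1 and 54.7 in AM-Allo 1 to 3. The groups did not overlap and the log2 difference was 1.82 ± 0.37 (adjusted p = 0.234), from low counts. Ifi27, an abundant interferon-induced protein of mitochondria, was listed at 3012, 3673 and 3228 in AM-Veh 1 to 3 and 4036, 3898 and 3861 in AM-Allo 1 to 3 (log2 difference 0.26, adjusted p = 0.294). Oasl2 was listed at 457, 504 and 493 in AM-Veh 1 to 3 and 572, 559 and 763 in AM-Allo 1 to 3, with AM-Allo 3 the highest (log2 difference 0.37, adjusted p = 0.473).

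Both subunits of the peptide transporter were slightly higher. Tap2 differed by 0.16 (adjusted p = 0.529, call lost without AM-Allo 2, at 0.11) and Tap1 by 0.16 (adjusted p = 0.623, call lost without AM-Allo 3 or AM-Veh 1, at 0.10 to 0.12). Irf1, Stat2, Dhx58, Trim25 and Eif2ak2 were also among the higher genes. Other members of the list were not called, and Ifit2 (-0.02), Ifit3 (-0.08), Mx1 (-0.09) and Rsad2 (-0.16) had log2 differences below 0. Oas1a, Ifi27 and Oasl2 were the 3 genes that held in every leave-one-out fit. The count of higher interferon genes fell to 6 with AM-Allo 3 left out and 5 with AM-Veh 1 left out, and to 5 when no trend of variance was fitted.

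Calls among cytokine genes were all higher. Among 42 tested cytokine and chemokine genes 5 were called higher (11.9%, against 3.72% of all genes) and 0 lower, and the list median was 0.07. Relative to the AM-Veh mean of each gene, AM-Veh 2 lay close to AM-Allo 2 and 3 over the whole list, with a median log2 level of 0.13 against 0.11 and 0.14, beside -0.09 to -0.04 in the other 3 libraries. Cxcl1, a neutrophil chemoattractant, was listed at 1770.5, 2114 and 1967 in AM-Veh 1 to 3 and 1802, 4222 and 3017 in AM-Allo 1 to 3. AM-Allo 1 lay within the AM-Veh range while AM-Allo 2 and 3 were above it, and the log2 difference was 0.55 ± 0.20 (adjusted p = 0.635). Ccl2, which recruits monocytes, followed the same order, with 687, 885 and 862 in AM-Veh 1 to 3 and 736, 1271 and 1219 in AM-Allo 1 to 3 (log2 difference 0.37, adjusted p = 0.692). Ccl7 (0.36), Ccl20 (0.43) and the macrophage growth factor Csf1 (0.14) were the other 3.

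Nfkbia, the inhibitor of NF-κB that NF-κB itself induces, had the same profile, at 1716, 1846 and 1636 in AM-Veh 1 to 3 and 1605, 3618 and 2592 in AM-Allo 1 to 3 (log2 difference 0.51 ± 0.19, adjusted p = 0.647). Neither Nfkbia nor any of the 5 cytokine genes held in every leave-one-out fit. The number of higher cytokine genes was 11 with AM-Allo 1 left out and 8 with AM-Veh 2 left out. It was 1 after removal of any of AM-Allo 2, AM-Allo 3 or AM-Veh 1, 1 in a robust fit and 0 with no trend of variance. Nfkbia had its call lost without AM-Allo 2 or AM-Veh 3, at 0.24 to 0.47.

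Upstream sequences are shown for 4 of these genes to set the calls beside the binding motifs of NF-κB and of interferon-regulated factors. They are the 250 bases before the RefSeq start in build GRCr8, written 5′ to 3′ on the gene's strand, with matches in capitals to the NF-κB consensus or to the core of the interferon-stimulated response element (GAAA, any 2 bases, then GAAA again), searched on both strands. In the promoters of Cxcl1 and RT1-A2 a pair of overlapping NF-κB matches form 1 run, and Tap1 holds both motifs. Cxcl1 is at chr14:17479322-17479571 (minus strand), RT1-A2 at chr20:4872621-4872870 (plus strand), Tap1 at chr20:4668544-4668793 (minus strand) and Oasl2 at chr12:47383186-47383435 (minus strand).
Cxcl1: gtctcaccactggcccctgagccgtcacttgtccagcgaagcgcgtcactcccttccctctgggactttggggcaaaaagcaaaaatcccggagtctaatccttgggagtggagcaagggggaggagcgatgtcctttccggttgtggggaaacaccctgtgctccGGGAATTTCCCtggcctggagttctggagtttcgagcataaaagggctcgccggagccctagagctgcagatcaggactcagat
RT1-A2: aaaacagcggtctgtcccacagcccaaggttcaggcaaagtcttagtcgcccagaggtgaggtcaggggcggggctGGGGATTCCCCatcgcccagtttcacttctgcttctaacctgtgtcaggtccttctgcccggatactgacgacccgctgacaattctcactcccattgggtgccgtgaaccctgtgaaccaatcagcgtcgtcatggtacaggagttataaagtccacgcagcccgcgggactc
Tap1: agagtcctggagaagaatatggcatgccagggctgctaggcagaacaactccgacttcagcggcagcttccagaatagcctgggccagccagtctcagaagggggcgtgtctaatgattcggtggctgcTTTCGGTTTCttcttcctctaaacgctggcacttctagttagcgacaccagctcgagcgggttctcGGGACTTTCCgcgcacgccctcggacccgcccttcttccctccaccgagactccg
Oasl2: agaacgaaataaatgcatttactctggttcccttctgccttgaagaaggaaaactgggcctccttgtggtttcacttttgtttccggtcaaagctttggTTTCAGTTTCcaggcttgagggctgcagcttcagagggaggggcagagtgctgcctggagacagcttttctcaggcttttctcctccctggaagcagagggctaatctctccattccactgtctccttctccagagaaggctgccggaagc

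The NF-κB consensus occurred in 3.54% of the 33469 promoters of the RefSeq table. It was found for 6 of the 8 higher MHC genes with a promoter in the table and for 3 of 19 other MHC genes tested. The 6 were RT1-A1, RT1-A2, RT1-CE4, RT1-CE5, RT1-CE10 and RT1-CE15, class I copies that share sequence and are not independent. The 3 were B2m, Cd74 and the class II gene RT1-Ba, so that the split by call partly follows the split by class. Higher and other genes were parted by the calls in these same data, and these shares are no test of the motif. Of the higher cytokine genes with a promoter, 2 of 3 held it (Cxcl1 and Ccl20), against 4 of 30 of the others. The interferon-stimulated response element core occurred in 3.41% of promoters. It was found for 6 of 10 higher interferon genes with a promoter and for 16 of 22 of the others, and it was in 0 of the 8 higher MHC genes. Only exact matches to this core were counted, so the 0 does not show that the MHC promoters lack a response element of other letters. A match describes these letters only and no binding was measured.

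**Figure D2:**
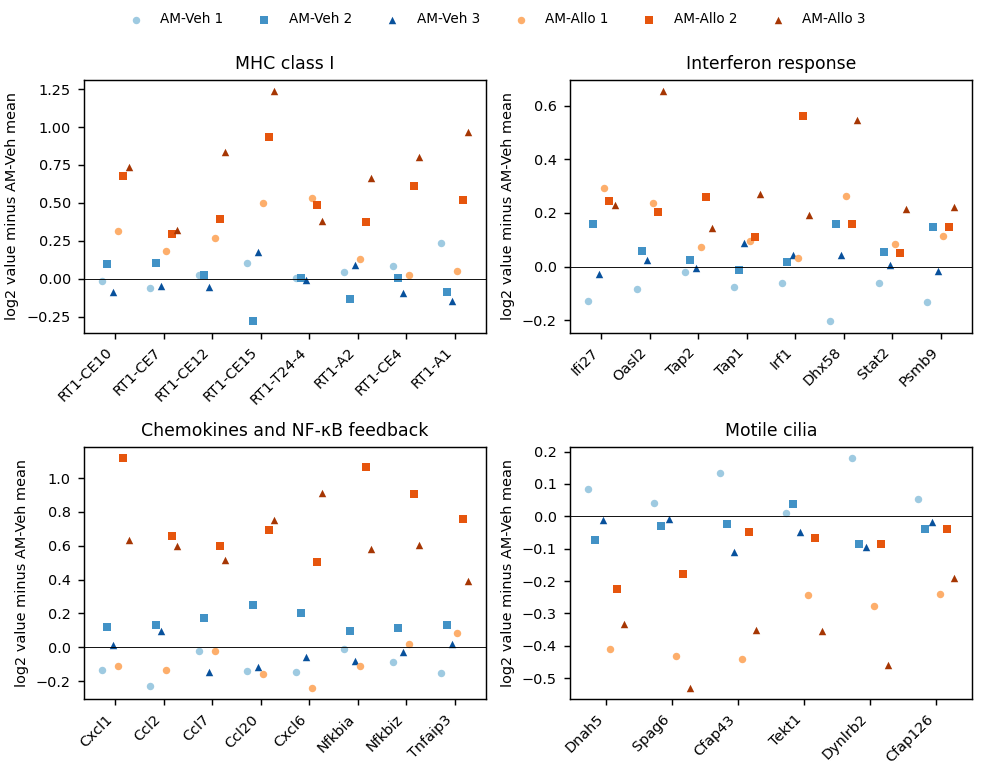
Log2 value of each gene in each of the 6 libraries minus the AM-Veh mean (vertical axes), one point per library, for 8 MHC class I genes, 8 interferon response genes, 8 chemokine and NF-κB feedback genes, and 6 genes of motile cilia. AM-Allo 1 sits with the AM-Veh libraries for Cxcl1 and Nfkbia but above them for RT1-CE10, and AM-Allo 2 is the AM-Allo library closest to AM-Veh for the cilia genes.

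The number of genes that passed adjustment changed most without AM-Allo 1. Without it, 72 genes had an adjusted p under 0.05 (0.468% of genes tested), 56 higher and 16 lower in AM-Allo. With all 6 libraries 69 of the 72 had an unadjusted p under 0.05. Both fits share every library but AM-Allo 1, so that this overlap is nearly fixed in advance and is no separate evidence. AM-Allo 1 itself passed the midpoint between the AM-Veh mean and the mean of the other AM-Allo libraries for 11 of the 72. Among the 72, chosen here after their values were seen, were the NF-κB feedback genes Nfkbia, Nfkbiz and Tnfaip3, the chemokines Cxcl1, Cxcl6, Ccl2, Ccl7 and Ccl20, and the class I genes RT1-A1, RT1-A2, RT1-CE4, RT1-CE10, RT1-CE12 and RT1-CE15. Nfkbiz, a nuclear cofactor of NF-κB, was listed at 737, 846 and 767 in AM-Veh 1 to 3 and 794, 1465 and 1190.3 in AM-Allo 1 to 3. AM-Allo 2 and 3 were above all other libraries, and AM-Allo 1 was inside the AM-Veh range. Tnfaip3, which encodes the A20 brake on NF-κB, was listed at 560.5, 682 and 633 in AM-Veh 1 to 3 and 659.8, 1054 and 818 in AM-Allo 1 to 3. Cxcl6 was listed at 1907, 2426 and 2027 in AM-Veh 1 to 3 and 1785, 2987 and 3975 in AM-Allo 1 to 3, with AM-Allo 1 the lowest of the 6. In a robust fit with all 6 libraries neither Nfkbiz nor Tnfaip3 was called.

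Calls among genes of motile cilia were all lower. All 17 ependymal and cilia markers had log2 differences below 0, with a median of -0.15, and 6 were lower (35.3%, against 3.29% of all genes) and 0 higher at an unadjusted p under 0.05. Dnah5, a heavy chain of the outer dynein arm, was listed at 685, 613 and 641 in AM-Veh 1 to 3 and 486, 553 and 513 in AM-Allo 1 to 3. AM-Allo lay below AM-Veh throughout, and the log2 difference was -0.32 ± 0.07 (adjusted p = 0.269). Spag6, a protein of the axoneme's central pair, was listed at 532, 506 and 514 in AM-Veh 1 to 3 and 383, 457 and 358 in AM-Allo 1 to 3 (log2 difference -0.38, adjusted p = 0.294). Cfap43, another axonemal protein, was listed at 1331, 1193 and 1124 in AM-Veh 1 to 3 and 894, 1172 and 949.7 in AM-Allo 1 to 3, where AM-Allo 2 lay within the AM-Veh range (log2 difference -0.28, adjusted p = 0.519).

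The tektin Tekt1 (-0.22, adjusted p = 0.54, call lost without AM-Allo 3, at -0.15), the dynein light chain Dynlrb2 (-0.27, adjusted p = 0.559, call lost without AM-Allo 3 or AM-Veh 1, at -0.18) and Cfap126 (-0.16, adjusted p = 0.669, call lost without AM-Allo 1, AM-Allo 3 or AM-Veh 1, at -0.11 to -0.14) completed the 6. Rgs22, a regulator of G protein signaling outside this list, differed by -0.18 (adjusted p = 0.524, call lost without AM-Allo 1 or AM-Veh 1, at -0.12 to -0.13). Dnah5, Spag6 and Cfap43 held in all 6 leave-one-out fits. The count was 11 when AM-Allo 2 was removed and 3 when AM-Allo 3 was removed, and the median stayed below 0 in every alternative, at -0.26 without AM-Allo 2, -0.09 without AM-Allo 1 and -0.06 in the variance-stabilized values. Whether fewer ciliated cells or less cilia RNA per cell lay behind the values cannot be told apart.

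Calls among astrocyte identity genes were all lower. Of 21 astrocyte markers tested, 18 had log2 differences below 0 (median -0.05), 4 were lower (19.05%, against 3.29% of all genes) and 0 higher at an unadjusted p under 0.05. Slc1a2, the glutamate transporter GLT-1, was listed at 209.9, 163 and 168 in AM-Veh 1 to 3 and 129, 159.7 and 133 in AM-Allo 1 to 3. The 3 AM-Allo values of Slc1a2 lay below the AM-Veh values, with a log2 difference of -0.36 (adjusted p = 0.654, call lost without AM-Allo 1, AM-Allo 3 or AM-Veh 1, at -0.24 to -0.32). Slc1a3, the transporter GLAST, was listed at 46859, 44497 and 43665 in AM-Veh 1 to 3 and 43758, 43372 and 45706 in AM-Allo 1 to 3 and differed by -0.02 (adjusted p = 0.943). Gfap differed by -0.03 (adjusted p = 0.935) and Aldh1l1 by 0.02 (adjusted p = 0.977).

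Of 21 genes of glutamate, potassium and water handling, 4 were lower (19.05%) and 0 higher. Beside Slc1a2 these included Kcnj10, the inward rectifier Kir4.1, at 638, 631 and 588 in AM-Veh 1 to 3 and 555, 539.5 and 566 in AM-Allo 1 to 3 (log2 difference -0.16, adjusted p = 0.656, call lost without AM-Allo 2, AM-Veh 1 or AM-Veh 2, at -0.14), and the sodium pump subunit Atp1b2 (-0.12, adjusted p = 0.578, call lost without AM-Veh 1, at -0.07). Without AM-Veh 1 none of the 4 astrocyte markers and none of the 4 transport genes was called. Of 37 reactive astrocyte genes, 2 were higher and 1 lower, while C3 (0.02, adjusted p = 0.985) and Lcn2 (0.06, adjusted p = 0.97) were not called.

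**Figure D3:**
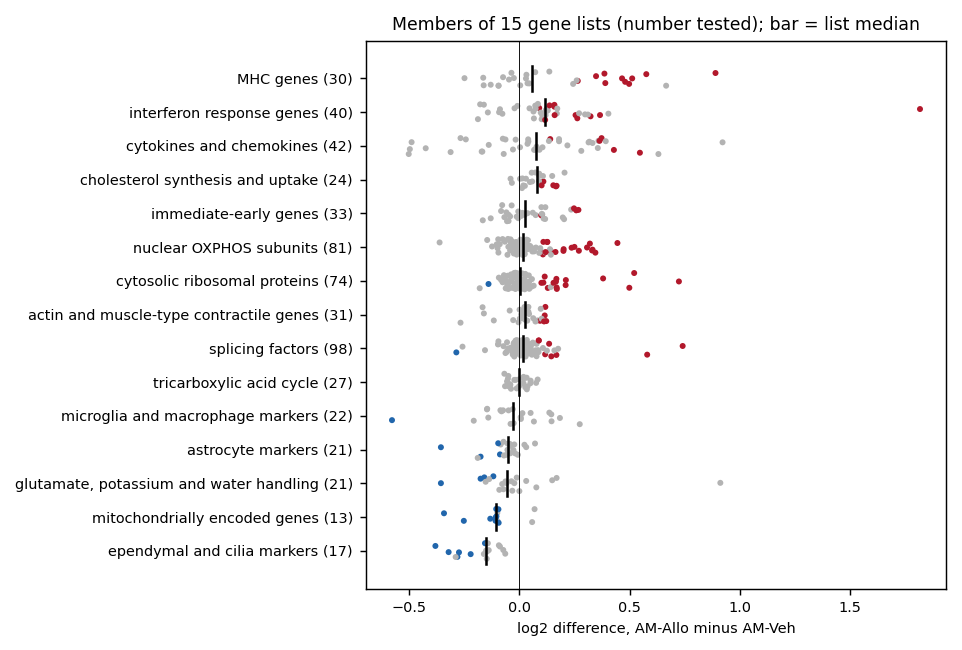
Log2 differences between AM-Allo and AM-Veh (horizontal axis) of the tested members of 15 gene lists, one point per gene, red or blue for an unadjusted p under 0.05 (higher or lower) and gray otherwise, with a bar at the list median. The medians run from -0.15 for ependymal and cilia markers to 0.12 for interferon response genes, and the tricarboxylic acid cycle list holds no called gene.

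Nuclear and mitochondrial genes of the respiratory chain were called in opposite directions. Of 81 nuclear subunits tested, 19 were higher (23.5%) and 0 lower, but the median over the 81 was 0.02. Of the 13 mitochondrially encoded genes, 9 were lower (69.2%) and 0 higher, with a median of -0.10. All 13 are transcribed from the same circular genome and are not independent. The nuclear genes that were higher included Cox8a, Cox6b1 and Cox7b, small subunits of complex IV, and Atp5mg, subunit g of the ATP synthase.

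Cox8a was listed at 1899.8, 1833 and 2074 in AM-Veh 1 to 3 and 2142, 2690.2 and 2569 in AM-Allo 1 to 3. AM-Allo lay above AM-Veh throughout, and the log2 difference was 0.34 ± 0.073 (adjusted p = 0.241). Atp5mg was listed at 894, 847 and 921 in AM-Veh 1 to 3 and 977, 1319 and 1367 in AM-Allo 1 to 3, again with AM-Allo 1 nearest to AM-Veh (log2 difference 0.45, adjusted p = 0.269). Cox6b1 differed by 0.31 (adjusted p = 0.269) and Cox7b by 0.25 (adjusted p = 0.473). Among subunits that were not called, Ndufs1 (-0.08, adjusted p = 0.727), Sdha (-0.05, adjusted p = 0.823) and Uqcrc2 (-0.04, adjusted p = 0.861) had log2 differences below 0.

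Of the mitochondrially encoded genes, Mt-nd3, a complex I subunit, was listed at 12673, 12032 and 10815 in AM-Veh 1 to 3 and 10250.5, 7714 and 10240.1 in AM-Allo 1 to 3. AM-Allo 2 was the lowest, the groups did not overlap, and the log2 difference was -0.34 ± 0.089 (adjusted p = 0.394, not called in a robust fit). Mt-nd4l was listed at 7804, 7457 and 7077 in AM-Veh 1 to 3 and 6802, 5713 and 6272 in AM-Allo 1 to 3 (log2 difference -0.25, adjusted p = 0.269). Mt-atp6 differed by -0.13 (adjusted p = 0.529) and Mt-cytb by -0.11 (adjusted p = 0.627, call lost without AM-Allo 1 or AM-Veh 1, at -0.08 to -0.11). Mt-co1 differed by -0.10 (adjusted p = 0.736). Another 7 transcripts carried the prefix Mt with an Ensembl ID and no gene name, and 4 of the 7 were higher and 0 lower. Mt-ENSRNOG00000032882 was listed at 458, 367 and 405 in AM-Veh 1 to 3 and 586, 697 and 1192 in AM-Allo 1 to 3 (log2 difference 0.94, adjusted p = 0.227), and each AM-Allo value was above the AM-Veh values. It alone of the 4 held in all 6 leave-one-out fits. The sum of the 13 named genes was highest in AM-Veh 1, at 914082 against 846414 and 855085 in the other AM-Veh libraries and 780067 to 833244 in AM-Allo. The number of lower genes was 3 with AM-Veh 1 left out, 4 with AM-Allo 1 left out and 5 with AM-Allo 2 left out, and it was 2, Mt-nd3 and Mt-nd4l, with no trend of variance. The count of higher nuclear subunits fell from 19 to 11 when AM-Allo 2 was removed, to 12 when AM-Veh 1 or AM-Veh 3 was removed, and to 6 with no trend of variance.

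**Figure D4:**
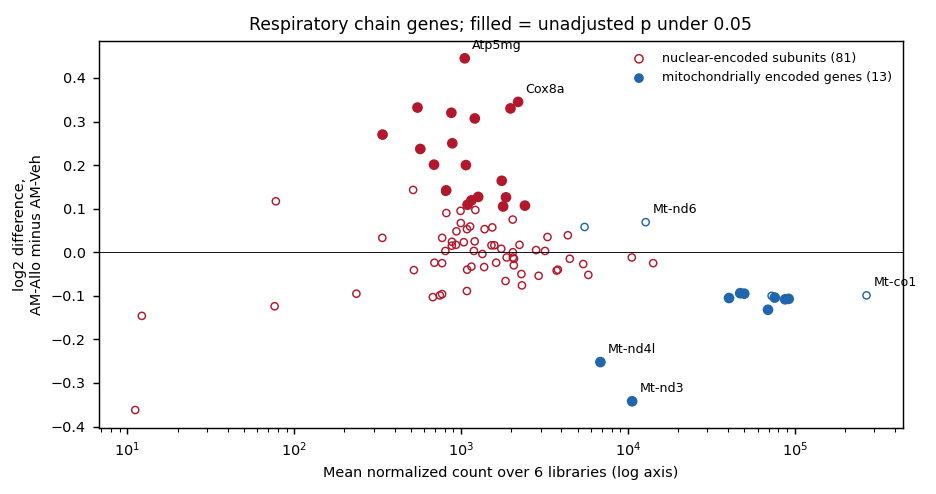
Log2 difference between AM-Allo and AM-Veh (vertical axis) against mean normalized count over the 6 libraries (horizontal log axis) for 81 nuclear-encoded subunits in red and 13 mitochondrially encoded genes in blue, filled where the unadjusted p was under 0.05. Filled red points lie above 0 and filled blue points below 0, with Atp5mg at 0.45 and Mt-nd3 at -0.34.

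Cytosolic ribosomal protein genes were called mostly in the higher direction. Of 74 tested, 15 were higher (20.3%) and 1 was lower, yet 38 log2 differences were above 0 and 36 below it, and the median of 0.0033 changed sign under upper-quartile scaling and without AM-Allo 1, AM-Allo 2, AM-Veh 1 or AM-Veh 3. Rpl37, a protein of the large subunit, was listed at 363, 369.6 and 389 in AM-Veh 1 to 3 and 474, 764 and 651 in AM-Allo 1 to 3. All AM-Allo values were higher and the log2 difference was 0.72 ± 0.13 (adjusted p = 0.161). Rplp1, of the ribosomal stalk, differed by 0.17 and the pseudogene-like copy Rps10l1 by 0.38, and Rpl21 was the lower gene (-0.14, adjusted p = 0.513). These genes have many processed copies, so that shared reads leave single members uncertain. The count of 15 fell to 9 without AM-Allo 2 and 9 without AM-Veh 1, to 10 without AM-Veh 2 and to 7 with no trend of variance. The lower count rose to 5 when AM-Allo 2 was removed and to 4 when AM-Allo 1 was removed.

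Of 98 splicing factors 8 were higher (8.16%, against 3.72% of all genes) and 1 lower. The higher count was 4 without AM-Veh 2 or without the trend of variance, and 5 without AM-Allo 1 or under upper-quartile scaling. Hnrnpa3 (0.17, adjusted p = 0.498) and Srsf9 (0.14, adjusted p = 0.529) were higher by small amounts. Snrpg, a core spliceosome protein, was listed at 432, 579 and 492 in AM-Veh 1 to 3 and 521, 807 and 978 in AM-Allo 1 to 3, with AM-Allo 1 inside the AM-Veh range (log2 difference 0.58, adjusted p = 0.498, not called in a robust fit). Among 73 mitochondrial ribosomal proteins 2 were higher and 2 lower, of which Mrps18a (-0.19, adjusted p = 0.519) held in every leave-one-out fit. No member was called among 34 ribosome biogenesis genes (median 0.02), and 1 of 44 proteasome subunits was higher, the immunoproteasome subunit Psmb9 (0.16, adjusted p = 0.686, call lost without AM-Allo 2, AM-Allo 3, AM-Veh 1 or AM-Veh 3, at 0.09 to 0.17).

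Genes of cholesterol synthesis and uptake were called in the higher direction. Of 24 tested, 22 had log2 differences above 0 (50.7% of all genes did), with a median of 0.08. At an unadjusted p under 0.05 in limma 5 were higher (20.83%, against 3.72% of all genes) and 0 lower. Srebf2, the master transcription factor of the pathway, was listed at 3648, 3775 and 3828 in AM-Veh 1 to 3 and 4185, 4007 and 3881 in AM-Allo 1 to 3. All 3 AM-Allo values were above the AM-Veh values, with a log2 difference of 0.10 (adjusted p = 0.654). Cyp51 (0.11) and Acat2 (0.17), enzymes of sterol metabolism, were also among the higher genes. None of the 24 was called with AM-Allo 1 or AM-Veh 1 removed or with no trend of variance, and 9 were called without AM-Allo 2, while the median stayed above 0 in every alternative.

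Other metabolic lists held few calls. None of 27 tricarboxylic acid cycle genes was called. Of 26 genes of glycolysis and the lactate shuttle 1 was lower, Gapdh (-0.11, adjusted p = 0.709, call lost without AM-Allo 2, AM-Allo 3, AM-Veh 2 or AM-Veh 3, at -0.06 to -0.10), and of 25 genes of lipid efflux and fatty acid synthesis 2 were lower, Fabp5 (-0.10, adjusted p = 0.709, call lost without AM-Allo 1, AM-Allo 2, AM-Veh 1 or AM-Veh 2, at -0.07 to -0.11) and Fabp7 (-0.10, adjusted p = 0.665, call lost without AM-Allo 3, AM-Veh 1 or AM-Veh 2, at -0.06 to -0.09). The only called gene among 26 of fatty acid oxidation was Echs1, the short-chain enoyl-CoA hydratase. Echs1 was listed at 698, 388 and 226 in AM-Veh 1 to 3 and 1076, 950.0 and 526 in AM-Allo 1 to 3. The groups overlapped and the values of each spread widely, so that the log2 difference of 1.04 ± 0.32 (adjusted p = 0.498) was not called in a robust fit. Of 46 lysosome and V-ATPase genes 1 was higher, the sialidase Neu1 (0.27, adjusted p = 0.498). Echs1 and Neu1 held with each library left out.

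Lists of the known targets of Allo and of steroid synthesis held few calls. Of 16 GABA-A receptor subunits listed, 8 passed the minimum mean. Gabre, at a mean of 329, had a log2 difference of 0.12 (adjusted p = 0.889) and Gabra3, at a mean of 326, of -0.15 (adjusted p = 0.811). Gabra5 was the 1 subunit called, at 75.5, 56.5 and 53.02 in AM-Veh 1 to 3 and 53.1, 42.2 and 32.8 in AM-Allo 1 to 3. The groups overlapped narrowly, with a log2 difference of -0.53 (adjusted p = 0.692, call lost without AM-Allo 2, AM-Allo 3 or AM-Veh 1, at -0.36 to -0.53).

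Of 20 genes of neurosteroid synthesis and membrane progestin receptors, 1 was lower. Star, which delivers cholesterol into mitochondria for steroid synthesis, was listed at 46.6, 37.1 and 49.5 in AM-Veh 1 to 3 and 27.9, 28.9 and 23.6 in AM-Allo 1 to 3. The 3 AM-Allo values were below all AM-Veh values, with a log2 difference of -0.70 ± 0.23 (adjusted p = 0.529), and the call held with each library left out. None of 19 voltage-gated calcium channel subunits and none of 26 chloride cotransporters and channels was called in limma. Cacna1c, the pore of an L-type channel, had a mean of 138 and a log2 difference of -0.02 (adjusted p = 0.991). Slc12a2, the chloride importer NKCC1, had a mean of 5852 and a log2 difference of 0.03 (adjusted p = 0.954). Of 29 genes of calcium stores and pumps 1 was lower, Atp2b3 (-0.66, adjusted p = 0.684, call lost without AM-Allo 2, AM-Veh 1 or AM-Veh 3, at -0.47 to -0.59), and of 9 gap junction genes 1 was higher, Gja5 (0.16, adjusted p = 0.663, call lost without AM-Allo 2, AM-Allo 3 or AM-Veh 2, at 0.11 to 0.13).

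Rapid-response and stress lists held few calls, though in some lists these were a larger share than over all genes. Over all 59 lists, not these alone, the 33 with 1 to 4 calls held 63 different called genes. With each library left out in turn 17 of the 63 kept an unadjusted p under 0.05 in limma, beside 294 of all 1078 called genes. Of 33 immediate-early genes 4 were higher (12.12%, against 3.72% of all genes) and 0 lower. Ier3 was listed at 1246, 1302 and 1285 in AM-Veh 1 to 3 and 1412, 1784 and 1446 in AM-Allo 1 to 3 (log2 difference 0.27, adjusted p = 0.448) and Gadd45b at 627, 693 and 640.5 in AM-Veh 1 to 3 and 704, 875 and 774 in AM-Allo 1 to 3 (log2 difference 0.26, adjusted p = 0.495), both without overlap. Of 17 glucocorticoid response genes 3 were higher (17.65%). They were Ddit4 (0.23, adjusted p = 0.322), Nfkbia and Fkbp5 (0.21, adjusted p = 0.684, call lost without AM-Allo 1, AM-Allo 3, AM-Veh 1 or AM-Veh 3, at 0.17 to 0.19). Tsc22d3 and Klf9 were not called. Ddit4, an inhibitor of mTORC1, was listed at 685, 745 and 690.2 in AM-Veh 1 to 3 and 825, 823 and 834 in AM-Allo 1 to 3, with both groups tight and separate.

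Among 80 heat shock and chaperone genes 1 was higher and 2 were lower, including Hspa8. Of 38 genes of the unfolded protein and integrated stress response 1 was higher, the transcription factor Cebpb (0.35, adjusted p = 0.335). Of 42 antioxidant genes 4 were lower (9.52%, against 3.29% of all genes) and 1 higher (2.38%, against 3.72%). Gstm5 (-0.13, adjusted p = 0.611, call lost without AM-Allo 1 or AM-Veh 1, at -0.10 to -0.12) was among the lower genes. Gpx4 (0.09, adjusted p = 0.686, call lost without AM-Allo 2, AM-Veh 1, AM-Veh 2 or AM-Veh 3, at 0.05 to 0.09) was the higher one. None of these 5 held in all 6 leave-one-out fits. The p53 targets gave 1 higher gene of 22, Phlda3 (0.13, adjusted p = 0.529). The hypoxia response genes gave 3 higher (13.04%, against 3.72% of all genes) and 1 lower of 23. The complement genes gave 2 lower of 21 (9.52%, against 3.29% of all genes). Of these Cd59, an inhibitor of complement lysis, differed by -0.15 (adjusted p = 0.488).

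Calls among contractile genes were all higher, and those among matrix genes depended on the libraries included. Of 31 genes in the actin and muscle-type contractile list 5 were higher (16.1%) and 0 lower. By p they were led by Lmna (0.12, adjusted p = 0.495), a nuclear lamin and not itself a contractile gene. The actin nucleator Lmod1 (0.12, adjusted p = 0.529) came next. The count was 2 when AM-Veh 1 was removed and 3 when AM-Allo 1 or AM-Veh 2 was removed. Of 37 collagens 3 were higher and 1 lower, and of 74 other matrix genes 6 were higher and 1 lower (8.11% higher in each list). With 1 library left out the higher count ran from 0 without AM-Veh 2 to 7 without AM-Veh 3 for collagens, and from 1 without AM-Veh 1 to 10 without AM-Veh 3 for the other matrix genes, whose median of 0.0059 changed sign in 5 alternatives. Adamts10, a metalloprotease of the fibrillin matrix, was listed at 2156, 2242 and 2458 in AM-Veh 1 to 3 and 2603, 2579.6 and 2469 in AM-Allo 1 to 3 (log2 difference 0.16, adjusted p = 0.501), and its relative Adamts1 went the other way (-0.18, adjusted p = 0.54). Integrins gave 1 higher and 1 lower gene of 18.

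Signaling lists held calls in both directions. Of 60 TGF-beta and BMP pathway genes 1 was higher and 4 were lower, of which 1 held in all 6 leave-one-out fits. The BMP targets Id4 (-0.15, adjusted p = 0.498) and Id2 (-0.11, adjusted p = 0.686, call lost without AM-Allo 2, AM-Allo 3, AM-Veh 2 or AM-Veh 3, at -0.07 to -0.11) were among the lower genes, as were Gdf1 and Smurf2. Of 129 G protein-coupled receptor signaling genes 6 were lower and 1 higher, of which 3 held in all 6 leave-one-out fits. Rgs5, a regulator of G protein signaling known from mural cells, was listed at 182, 126 and 176 in AM-Veh 1 to 3 and 123.3, 109 and 95.9 in AM-Allo 1 to 3. Every AM-Allo value was below every AM-Veh value, with a log2 difference of -0.55 (adjusted p = 0.488). Gna14 (-0.14, adjusted p = 0.498) and the adhesion receptor Adgrd1 (-0.78, adjusted p = 0.54) were lower in every leave-one-out fit.

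Of 46 Wnt pathway genes 1 was higher, Dvl1, and 1 lower, the secreted inhibitor Sfrp2, at 154, 141 and 119.5 in AM-Veh 1 to 3 and 82.8, 117 and 90.4 in AM-Allo 1 to 3 (log2 difference -0.52, adjusted p = 0.514). Of 24 Notch and hedgehog genes 1 was lower. Of 21 MAPK feedback genes 3 were higher (14.29%, against 3.72% of all genes) and 1 lower. None of 20 circadian clock genes was called, with a median of -0.03. Of 50 potassium channels 2 were lower, Kcnj10 and Kcnv1, a silent subunit, at 41.1, 40.9 and 36.7 in AM-Veh 1 to 3 and 24.5, 14.3 and 16.4 in AM-Allo 1 to 3 (log2 difference -1.10, adjusted p = 0.335). Of 257 solute carriers 7 were higher and 8 lower, at 3 to 10 and 2 to 10 with 1 library left out (the lowest counts came on removing AM-Veh 1 and AM-Allo 1), and none kept its call in all 6 leave-one-out fits. Of 38 growth and trophic factors 2 were higher and 3 lower, the latter including the synapse-promoting Sparcl1 (-0.13, adjusted p = 0.654, call lost without AM-Allo 1, AM-Allo 3 or AM-Veh 1, at -0.07 to -0.11) and pleiotrophin, Ptn (-0.09, adjusted p = 0.696, call lost without AM-Allo 2, AM-Allo 3 or AM-Veh 1, at -0.06 to -0.08).

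Markers of other lineages held few calls, all of them lower. No oligodendrocyte lineage marker of 10, no endothelial marker of 5 and no sex-linked gene of 4 was called. Of 12 neuron markers 2 were lower (16.67%, against 3.29% of all genes), and neither held in all 6 leave-one-out fits. Of 15 mesenchymal markers 2 were lower (13.33%), including Rgs5. Of 8 choroid plexus markers 1 was lower (12.5%), the folate receptor Folr1 (-0.23, adjusted p = 0.395). Of 44 cell cycle genes 2 were higher, Bub1b (0.38, adjusted p = 0.529, call lost without AM-Veh 1, at 0.26) and Foxm1 (0.24, adjusted p = 0.709, call lost without AM-Allo 1, AM-Allo 3, AM-Veh 2 or AM-Veh 3, at 0.17 to 0.25). Of 18 histone genes 2 were higher (11.11%, against 3.72% of all genes) and 1 lower. Of 289 zinc finger genes 5 were higher and 7 lower, with none of these zinc finger genes kept in all 6 leave-one-out fits. Of 21 small RNA genes 1, Mir421, was higher, but poly(A)-selected libraries do not measure mature miRNAs.

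Many called genes had no settled name. Of 1736 tested genes listed by Ensembl ID alone, 94 were higher and 117 lower, 12.2% in all, beside 6.35% of the 13644 with a symbol, a difference that was not tested. None of the IDs could be paired with a name in the reference table. The gene with the second lowest p, ENSRNOG00000058238, was listed at 772, 838 and 912 in AM-Veh 1 to 3 and 1090.4, 1417 and 1206 in AM-Allo 1 to 3 (log2 difference 0.55, adjusted p = 0.0961 in limma). ENSRNOG00000056233 was lower, at 199, 198 and 206 in AM-Veh 1 to 3 and 155, 116 and 108 in AM-Allo 1 to 3 (log2 difference -0.69, adjusted p = 0.234). Of 702 transcripts named by locus or clone 49 were higher and 29 lower. LOC689955 was listed at 151, 191 and 159 in AM-Veh 1 to 3 and 228, 327 and 369 in AM-Allo 1 to 3, with the groups apart (log2 difference 0.86, adjusted p = 0.17).

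The genes called in astrocytes were also read in neurons of the same series. The 8 neuron libraries, 4 with 100 nM Allo and 4 with vehicle, came from cells held for 4 h in a supplement-reduced neuronal medium and then treated for 16 h, and were normalized separately. Of 994 astrocyte-called genes that were also tested in neurons, 57 (5.73%) had an unadjusted p under 0.05 there, beside 5.69% of all 15314 genes tested in neurons, and 20 of the 57 had the same direction. Some neuron libraries share the first part of their replicate number, so that neuron p-values may be too small. The vehicle neuron libraries also held Gfap at a mean of 94233, so that they were not free of astrocyte transcripts. RT1-CE10 had a neuron log2 difference of -0.48, Nfkbia of -0.06, Dnah5 of -0.04 and Cox8a of -0.06, none of them called. Differences between the cell types were not tested.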

How the data were processed

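RNA of rat hippocampal astrocytes was sequenced from libraries made with a stranded mRNA kit, 3 with Allo and 3 with vehicle. Per the labels and methods, the authors quantified transcripts with Salmon 0.14 and deposited normalized counts from DESeq2 1.18.1, a linear signal of estimated counts divided by normalization factors, together with variance-stabilized values on a log2 scale, separately for astrocytes and neurons. The normalized counts were analyzed as log2(value + 1). Genes with a mean of at least 10 were tested with limma 3.58.1 in R 4.3.3, with a trend of variance and Benjamini-Hochberg adjustment at 0.05, on the 6 astrocyte libraries alone. Fold changes of low genes are understated by the added 1. Of the genes listed, 9853 were at 0 in all 6 libraries. In the table, 24 symbols had been turned into dates and 2 symbols occurred more than once.

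The 59 gene lists and the genes described were chosen with earlier results of these data known. Named genes were those past adjustment, the 12 largest rises and falls at a mean of at least 50 without overlap, the 5 smallest p-values in each direction, and up to 4 called and 2 abundant members of each list. Neighbours, NF-κB feedback genes and some other genes were chosen after their values were seen. Some members of the lists count in the totals but are not reported here by name. Promoters came from the RefSeq table for GRCr8, which held 10393 of the tested genes, and its coordinates were used for the printed windows only.

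Tested on simulated astrocyte counts, the fit recovered 94.5% of genes changed by 0.5 on the log2 scale at an unadjusted p under 0.05 and 81% after adjustment. The simulation gave every gene the same relative spread, taken from abundant genes, and held no outlying library. These shares therefore need not hold for the real libraries. The alternatives were the deposited log2 values, other minimum means, a pseudocount of 5, quantile and upper-quartile scaling, a replicate block, a robust fit, no trend of variance, and each library left out.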

Additional observations from a re-analysis of the deposited data

Results flagged for a closer look

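For 9 of the named genes every AM-Allo library lay beyond every AM-Veh library in both cell types, but in opposite directions. They were 5.52% of the 163 named and called genes that separated the groups in astrocytes and were tested in neurons, and 1 such gene separated them in the same direction. Over all tested genes 37 of 1810 (2.04%) did so in opposite directions and 26 in the same direction. The named genes were chosen after earlier results, and nothing is read from these shares. The difference between astrocytes and neurons was not tested, the treatment times differed, and the tables were normalized separately. Pde1a had a log2 difference of -0.65 in astrocytes and 0.43 in neurons. Rpl37 had 0.72 and -0.18, and ENSRNOG00000054489 had 0.51 and -0.15. Fkbp5, a chaperone induced by glucocorticoids, had 0.21 and -0.20. Dcx, a marker of young neurons, had -0.36 and 0.11, from a mean of 114 ± 10.8 (SD) in AM-Veh astrocytes and 12383 in AM-Veh neurons. Dvl1, a Wnt signal transducer, had 0.10 and -0.08. Cox7c and Cox6c, small subunits of complex IV, had 0.33 and -0.11, and 0.16 and -0.06. Nkap had -0.44 and 0.20. With 1 library left out the astrocyte call was lost for Dcx without AM-Allo 2, AM-Veh 1 or AM-Veh 3, for Cox6c without AM-Allo 3 or AM-Veh 3, for Dvl1 without AM-Allo 2, AM-Veh 1 or AM-Veh 2, and for Fkbp5 without AM-Allo 1, AM-Allo 3, AM-Veh 1 or AM-Veh 3.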

How the results depend on the processing

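The count of genes at an unadjusted p under 0.05 lay between 914 and 1427 under other filters, scalings and fits and between 782 and 1279 with 1 library left out, within 1.5 times of 1078 throughout. Under upper-quartile scaling 39.0% of called genes were higher, against 53.1%, while the median of all genes was -0.013. The count past adjustment was 1 in the reported fit, 0 at a minimum mean of 50, where Gatd1 was not tested, 0 without the trend of variance, 4 in a robust fit, and 1 to 72 with 1 library left out. Removing AM-Allo 1 gave 72, removing AM-Veh 2 gave 3 and removing AM-Allo 3 gave 2. The causes were not tested.

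A replicate block gave 1102 genes at an unadjusted p under 0.05 and 17 past adjustment. The deviations of same-numbered libraries correlated at -0.007 to 0.024 over genes, and not every library correlated best with its own number. With so few libraries these correlations cannot decide whether same-numbered libraries shared a culture, which the sources do not say.

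Over 249 called genes of the lists and naming rules and 15 alternatives, 3097 values kept their direction and side of 0.05, 622 kept the direction but not the side, and 0 reversed. The sum of RT1-A and RT1-CE genes was chosen after seeing the data. The counts are at a depth of about 22200000 to 28500000 reads, and a p that misses 0.05 does not show that values were equal.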
